A study of Arabidopsis thaliana with 18 samples.

Results

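Translational efficiency in ceres-2 seedlings was described gene by gene as the difference between the change in ribosome footprints and the change in RNA. Both changes were log2 fold changes of ceres-2 over Col-0, so a negative difference means fewer footprints per RNA in ceres-2. The members were all genes with a footprint and an RNA fold change in ceres-2, which were 22891 of the 27628 genes of the authors' deposited table. Of these 22891 genes, 12188 also had an adjusted p-value of efficiency and are called tested genes here. The other 10703 had no such p-value, and their differences spread more widely, with quartiles of -0.47 and 0.53 against -0.19 and 0.17 in the tested genes.

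The groups were ceres-2 mutant seedlings of Arabidopsis thaliana and wild-type Col-0 seedlings, with ceres-1 as a second mutant of the same gene. All were in the Col-0 ecotype, were 9 days old, grew under control conditions and were harvested at Zeitgeber time 5, that is, 5 h after dawn. Each genotype had 3 footprint libraries and 3 RNA libraries. The kind of lesion in ceres-1 and ceres-2, and whether a replicate was a separate pool of seedlings, were not given in the sources used here. If the replicates were technical, the p-values measure only the spread between libraries. The table holds fold changes and adjusted p-values only. Totals, levels and replicate spread could therefore not be given, the depth is unknown, and the seedling label could not be set against marker genes.

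Most plant mRNAs are translated after the cap-binding protein eIF4E, or its plant-specific relative eIFiso4E, recruits a scaffold protein of the eIF4G family, which in turn brings the helicase eIF4A and the small ribosomal subunit. CERES is a plant protein that binds eIF4E and eIFiso4E, and the series asked how its loss changes which mRNAs are translated. In ribosome profiling, the fragments of mRNA that ribosomes protect from nuclease are sequenced beside total RNA, so that a change in ribosomes per transcript can be separated from a change in transcript. Ribosomes that make membrane and secreted proteins are brought to the endoplasmic reticulum by the first hydrophobic segment that leaves the ribosome, and small reading frames that start in the leader before the coding sequence can take up scanning ribosomes.

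RNA of the CERES gene itself, AT4G23840, fell by 2.92 on the log2 scale in ceres-2 relative to Col-0, with an adjusted p of 6.19e-05 in the authors' deposited table. Its footprint log2 fold change was -3.16, with no adjusted p given. The difference was -0.24 and had no adjusted p, and the low RNA went with the mutant label.

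Efficiency fell in 5 genes of ceres-2 and rose in none at an adjusted p below 0.05 in the authors' deposited table. These 5 calls are 0.0410% of the 12188 tested genes. They are FAD2, the enzyme of the endoplasmic reticulum that makes linoleic from oleic acid, VGT1, a glucose transporter of the vacuole membrane, GASA4, a secreted cysteine-rich peptide regulated by gibberellin, AT3G47250, a predicted transmembrane protein with the domain of unknown function DUF247, and AT1G70780, annotated only as a hypothetical protein. The differences ran from -0.80 to -1.33, which is 1.74-fold to 2.52-fold fewer footprints per RNA than in Col-0. The first bases of their coding sequences, with the leader bases just before them, are shown because these are the mRNAs that passed the test and the start codon is where a ribosome begins translation. Sequences are 5′ to 3′ on the coding strand from RefSeq TAIR10.1, matched by locus identifier, with the start codon in capitals.
AT1G70780: tcgatttcgaagATGttgctctac
GASA4: cccaaactgaaaATGgctaagtca
AT3G47250: tggggttgaattATGgaggatgag
FAD2: atctccagaaacATGggtgcaggt
VGT1: gcttccgtagccATGgggtttgat

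The third base before the start codon, where A or G favours initiation, was A in AT1G70780, GASA4, AT3G47250 and FAD2 and G in VGT1. Among the tested genes with an annotated transcript, 48.8% had A and 24.8% had G at that place. The base just after the start codon was G in GASA4, AT3G47250, FAD2 and VGT1 and T in AT1G70780, and 58.3% of the tested genes had G there. Grouped by the base at either place, the tested genes had median differences between -0.0016 and -0.021, so start contexts differed little in efficiency. The annotated leaders of the called genes held 1 ATG in AT1G70780, 4 in GASA4, 1 in AT3G47250, 2 in FAD2 and none in VGT1. Their lengths were 417, 201, 130, 376 and 249 bases in the same order.

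AT1G70780 had the smallest adjusted p together with GASA4. In the authors' deposited table its footprints changed by -1.14 in ceres-2 over Col-0, with an adjusted p of 0.000164, while its RNA changed by 0.14. The difference was -1.28, with an adjusted p of efficiency of 0.0268. Its predicted protein of 140 residues had no stretch of 19 residues at the hydrophobicity limit of 1.6 used below, though its highest value, 1.558, came close.

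GASA4 (AT5G15230) belongs to the peptides that act downstream of gibberellin in flowering and seed growth. Its footprint log2 fold change was -0.46 and its RNA log2 fold change 0.34 in the authors' deposited table. The difference of -0.80 was the smallest of the 5 called, and its adjusted p of efficiency was 0.0268. Here the RNA value contributed almost as much to the difference as the footprint value did.

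AT3G47250 had a footprint log2 fold change of -0.70, an RNA log2 fold change of 0.32 and a difference of -1.02, with an adjusted p of efficiency of 0.0285 in the authors' deposited table. FAD2 (AT3G12120) had a footprint log2 fold change of -0.94 with an adjusted p of 6.63e-13, an RNA log2 fold change of 0.11 and a difference of -1.05, with an adjusted p of efficiency of 0.0469. VGT1 (AT3G03090) had a footprint log2 fold change of -0.82, an RNA log2 fold change of 0.51 and the largest of the 5 differences, -1.33, with an adjusted p of 0.0495. FAD2 was thus almost all footprint loss. VGT1 passed the test of efficiency but not that of footprints, where its adjusted p was 0.149. RNA passed the test in none of the 5, with an adjusted p close to 1 in each.

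**Figure D1:**
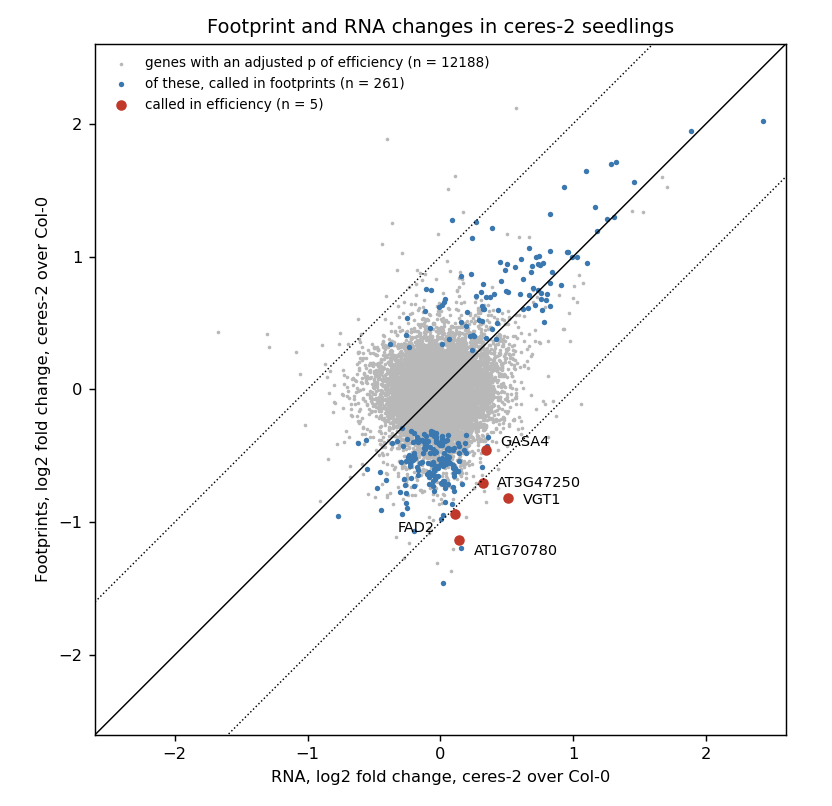
Footprint against RNA log2 fold changes of ceres-2 over Col-0 for the 12188 genes with an adjusted p of efficiency (grey), with 261 of them called in footprints (blue) and 5 called in efficiency (red, named). The solid line marks equal change and the dotted lines a difference of 1 in either direction; the 5 called genes lie right of an RNA change of 0 and below a footprint change of 0.

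In ceres-1, which is compared with the same Col-0 libraries, the differences of the 5 genes were -0.78 for AT1G70780, -0.52 for GASA4, -0.82 for AT3G47250, -1.11 for FAD2 and -1.35 for VGT1. Of these, FAD2 and VGT1 passed the test in ceres-1, with adjusted p-values of 0.0150 and 0.0174 in the authors' deposited table. The other 3 had adjusted p-values of 0.118, 0.217 and 0.0734. Because the mutants share their Col-0 libraries, the values stand side by side and do not support each other. In ceres-1, 13 of 12120 genes were called in efficiency, or 0.107%.

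Across the 12188 tested genes, efficiency in ceres-2 was centred on that of Col-0. The median difference was -0.0097, 6289 genes lay below 0 and 5899 above, and 91.7% lay within 0.5 of 0. The range was -1.48 to 2.29, and the gene at the upper end, ATMG01330 of the mitochondrion, had no adjusted p of footprints. A difference of at least 1 was present in 19 genes below 0, or 0.156%, and in 27 genes above 0, or 0.222%. The genes with the least adjusted p-values lay on the lower side, although the widest differences did not. Below an adjusted p of 0.1 there were 7 genes, all lower, below 0.2 there were 20 lower and 1 higher, and below 0.5 there were 70 lower and 14 higher. Most genes were far from any call, with 87.7% at an adjusted p above 0.9.

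The 20 genes with the smallest adjusted p of efficiency, which reach an adjusted p of 0.192, comprised 19 with a lower and 1 with a higher difference. The 15 beyond the called genes did not pass the test and are given as values. ATG18G, a phosphoinositide-binding protein of autophagy, had a difference of -0.86 with an adjusted p of 0.0702. SULTR2;1, a low-affinity sulfate transporter of vascular tissue, had a difference of -0.97 with an adjusted p of 0.0711. CAX1, the calcium/proton exchanger of the vacuole, had a difference of -0.78, CAT9, a cationic amino acid transporter, one of -0.96, and AHA3, listed as HA3, a plasma membrane proton pump, one of -0.64.

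A further 4 further genes encode chloroplast proteins of photosynthesis. LHCA4 and LHCB3, antenna proteins of photosystems I and II, had differences of -0.98 and -0.83. ALB3, which inserts antenna proteins into the thylakoid membrane, had a difference of -0.75, and GAPA, a subunit of the Calvin-Benson cycle's glyceraldehyde-3-phosphate dehydrogenase, one of -0.78. In LHCA4, LHCB3, ALB3 and GAPA the RNA values lay between 0.0053 and 0.10, so that these differences were nearly the footprint values.

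Of the remaining genes, DEG7, annotated as a DegP-type protease, had a difference of -0.75, FBA5, a fructose-bisphosphate aldolase, one of -0.92, and AT5G03880, a thioredoxin family protein, one of -0.71. The others were MEE31, a mannose-6-phosphate isomerase, at -0.89, the kinase AT5G14720 at -0.71 and a histone H4 gene, HIS4 (AT2G28740), at 1.05. HIS4 was the only one of the 20 with a positive difference. Its RNA value was -0.86 and its footprint value 0.19, and neither passed the test. Several genes encode identical histone H4, so reads of HIS4 may be split between copies. Of the 20 genes, 19 had an RNA value above 0 and 16 were called in footprints. RNA is subtracted in the difference, so an RNA value above 0 makes a difference lower by construction, whatever its own error. The difference in ceres-2 was further from 0 than that in ceres-1 in 18 of the 20 genes, which were chosen on ceres-2.

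**Figure D2:**
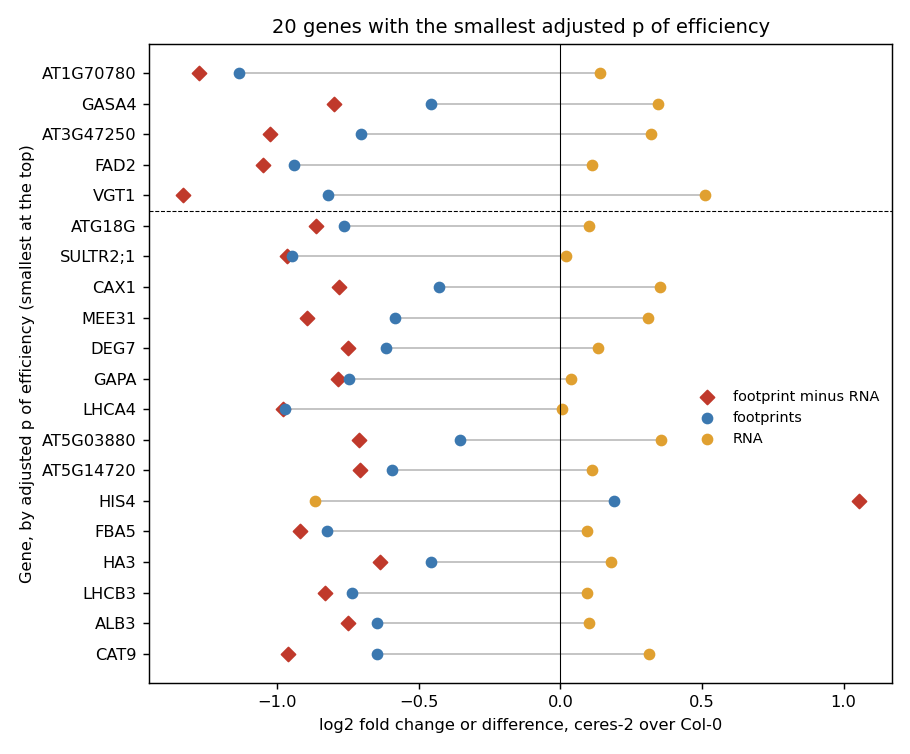
RNA, footprint and difference values, on the log2 scale, of the 20 genes with the smallest adjusted p of efficiency in ceres-2, in the order of that p, with the dashed line after the 5 called genes. RNA lies above 0 in 19 of the 20, and HIS4 is the 1 gene with a positive difference.

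Footprint changes gave far more calls than efficiency. In ceres-2, 272 of 14453 genes, or 1.88%, were called in footprints at an adjusted p below 0.05 in the authors' deposited table. Of these, 166 had fewer footprints (1.15%) and 106 had more (0.733%). The 166 lower genes had a median footprint change of -0.53 and a median RNA change of -0.042, and 150 of them had an RNA change under 50% of the footprint change or in the other direction. Of the 106 higher genes, the 95 tested for efficiency had a median footprint change of 0.74 and a median RNA change of 0.50. In 30 of the 106 the RNA change was under 50% of the footprint change or in the other direction. Fewer footprints thus stood mostly without an RNA change of that size, and more footprints mostly with one. RNA itself passed its test in 26 of 19000 genes, or 0.137%. In bulk seedlings, fewer cells of a type and less RNA or fewer footprints per cell cannot be told apart.

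The median difference was -0.49 in the 166 genes with fewer footprints, of which 164 lay below 0. It was 0.24 in the 95 tested genes with more footprints, of which 78 lay above 0. Footprints are part of the difference, so these signs follow in part from the choice of genes. Of the 166 genes, 4 were also called in efficiency, against 0.0410% of the tested genes. The 95 tested genes with more footprints are 0.779% of the tested genes. None of the 95 was called in efficiency, and their lowest adjusted p of efficiency was 0.405. Protein and leader features were counted in tested genes with an annotated transcript. At least 1 hydrophobic stretch was present in 52.1% of 165 genes with fewer footprints, 20.2% of 94 with more and 38.2% of all 12042. An ATG in the annotated leader was present in 73.9%, 63.8% and 61.3% of the same sets.

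Among genes with fewer footprints, the largest difference was that of AT1G33250, a putative glycosyltransferase with the domain DUF604, at -1.48 with an adjusted p of efficiency of 0.571. AT2G39000, a chloroplast N-terminal acetyltransferase, followed at -1.35 with an adjusted p of efficiency of 0.474. Both exceeded every called difference, and neither passed the test of efficiency. AT4G18670, a leucine-rich repeat protein, had -0.95, and AK3, an aspartate kinase of the pathway to lysine, threonine and methionine, had -0.88. The other genes of the 10 largest were AT1G70780, FAD2, AT3G47250, LHCA4, SULTR2;1 and MEE31, given above.

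Among genes with more footprints, ATCG00050, the chloroplast gene of ribosomal protein S16, had the largest difference, 1.18, from a footprint value of 1.27 and an RNA value of 0.091. LpxC2 (AT1G24880), of the lipid A pathway enzymes, had 0.99 but has close copies that may share its reads. TCH2, a calmodulin-like calcium sensor induced by touch, had 0.86, and EBF1, the F-box protein that removes the ethylene regulator EIN3, had 0.82. AT3G10020, whose description names no function, had 0.90, AT4G05070, the wound-induced polypeptide WIP2, had 0.82, AT2G05510, annotated as a glycine-rich protein, had 0.79, and AT1G54410, a dehydrin, had 0.72. AT1G65220, an ARM repeat protein, and AT1G26800, the RING ubiquitin ligase MPSR1 that senses misfolded proteins, both had 0.70. In TCH2, EBF1, AT2G05510, AT1G54410 and AT1G65220 the footprint values lay above 0 and the RNA values below 0. Their adjusted p-values of efficiency lay between 0.405 and 0.855.

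The deposited column headed as efficiency fold change was not the difference used here. Across the 12188 tested genes it had a Pearson r of 0.992 with the footprint fold change, and lay within 0.05 of it in 97.7% of genes. With the difference its r was 0.685, and it lay within 0.05 of it in 21.5% and on the other side of 0 in 2974 genes. These correlations are across genes, which are not independent replicates, and the footprint values enter both sides. The homeobox gene ATHB2 (AT4G16780), a regulator of shade avoidance, shows the contrast. Its RNA rose by 2.43 and its footprints by 2.02 in the authors' deposited table, where the efficiency column gives 2.01 and the adjusted p of efficiency is 0.906. The difference was -0.41. Of the 16 tested genes called in RNA, 14 had an efficiency column beyond 0.5 in either direction, yet their lowest adjusted p of efficiency was 0.570, and their differences lay between -0.61 and 0.75.

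**Figure D3:**
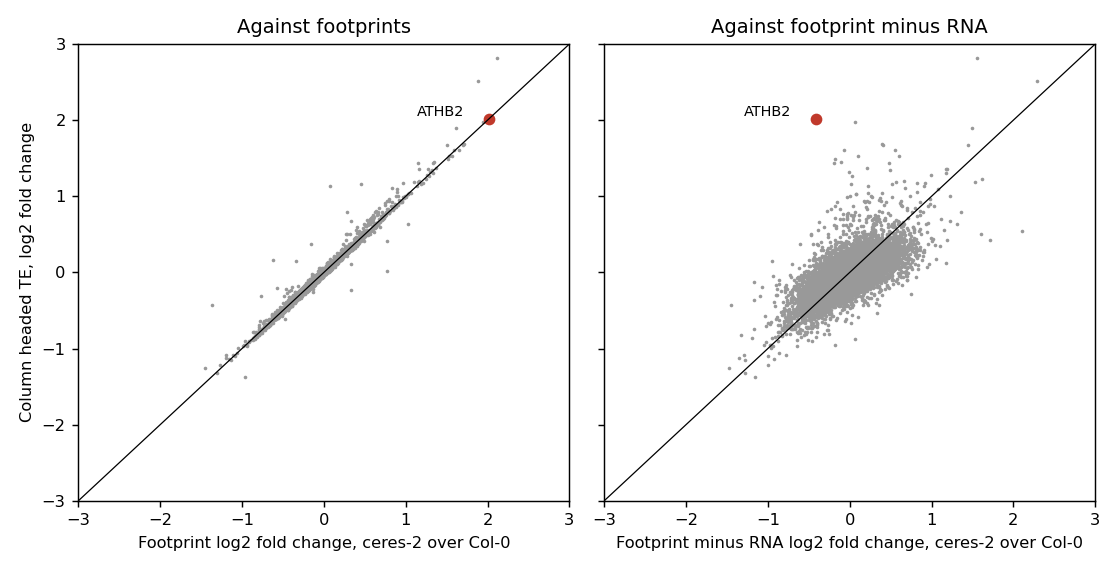
The deposited efficiency column (log2, vertical axes) of the 12188 tested genes against the footprint log2 fold change (one panel) and against footprint minus RNA (the other panel), ceres-2 over Col-0. Points follow the line of equality with footprints (r = 0.992) and scatter about it with the difference (r = 0.685).

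Genes were next grouped into 32 classes by their descriptions or, for organelle genes, by their identifiers. In all, 20 class medians lay below the median of the tested genes and 12 above it. Of the classes grouped here as membrane classes, 11 of 11 lay lower, but classes were revised and transporters split after values were seen. Cytochromes P450, with a median of -0.0017, were not grouped with the membrane classes and lay above the median of the tested genes. Cell wall and secreted classes lay lower in 3 of 3. Of these, the gibberellin-regulated peptides rest on 5 tested genes and change sign over all members. The 4 translation classes and both nuclear classes lay higher. Most class medians were within the quartiles of the tested genes, and 51.6% of the tested genes lay below 0. Counts and medians here describe the tested members only, carry no test and depend on words in the descriptions.

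Amino acid, sugar and ion transporters had the lowest medians among classes of more than 5 tested genes. Of 48 tested amino acid transporters, 42 lay below 0, with a median difference of -0.26. Their median RNA value was 0.15 and their median footprint value -0.099, so both parts of the difference contributed, and in the deposited efficiency column the median was -0.11. CAT8, a cationic amino acid transporter, had -0.82, and at the other end UMAMIT29, an amino acid exporter, had 0.37. None of the 48 was called in efficiency, against 0.0410% of the tested genes. None was called in footprints either, against 1.36% lower and 0.779% higher among the tested genes.

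Sugar transporters had a median of -0.23, with 28 of 39 below 0, and hold the called gene VGT1, but in the deposited efficiency column their median was -0.019. At the other end, AT4G36660, annotated as a putative polyol transporter, had 0.41. Ion transporters had a median of -0.21, with 60 of 80 below 0, and 4 of the 80 were called with fewer footprints, against 1.36% of the tested genes. One of these 4, AT3G56160, of the sodium/bile acid symporter family, had a difference of -0.87. The median of the vacuolar and plasma membrane ATPases, the proton pumps that energise transport, was -0.15, with 15 of 18 below 0, not counting AHA3, whose description is worded otherwise. The main plasma membrane pump AHA1, listed as HA1, had -0.40, and VHA-A2, a subunit of the vacuolar pump, -0.41.

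Nitrate and peptide transporters had a median of -0.14, with 13 of 18 below 0, and the dipeptide transporter PTR1 had -0.47. Desaturases had a median of -0.15, with 9 of 11 below 0, and 2 of the 11 had fewer footprints by the test, against 1.36% of the tested genes. These were SLD1, which desaturates the long-chain base of sphingolipids, with a difference of -0.73, and FAD7, which makes trienoic fatty acids in the chloroplast, with -0.55. FAD2 is not counted here because its description lacks the word. Among membrane classes, the medians nearest to that of the tested genes were those of MATE efflux carriers, at -0.034, and transmembrane proteins, at -0.067. In ceres-1 the MATE median was 0.045, while those of the other membrane classes were below 0. In ceres-2, aquaporins, the water channels, had -0.092, ABC transporters -0.093 and receptor-like kinases -0.10, with 100 of 150 kinases below 0. PEPR1, the receptor of the danger peptides Pep, had -0.60 with an adjusted p of 0.570, and the auxin exporter ABCB1 had -0.43.

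Cell wall proteins and enzymes had a median of -0.11, with 131 of 201 below 0, and 9 of the 201 were called with fewer footprints, against 1.36% of the tested genes. XTH32, a xyloglucan-modifying enzyme, had a difference of -0.62 and CESA1, a catalytic subunit of primary wall cellulose synthase, had -0.43, and the footprints of both fell by the test. Lipid transfer proteins, small secreted proteins, had a median of -0.11, with 29 of 43 below 0. Of 16 gibberellin-regulated peptides in the table only 5 were tested, with 4 below 0 and a median of -0.27. Over all 11 with both fold changes the median was 0.076, and in the deposited efficiency column it was 0.040, both above 0. GASA1 lay on the other side of 0 from GASA4, with a difference of 0.53 and an adjusted p of 0.895.

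Nuclear genes of photosynthesis held several footprint calls. Calvin-Benson enzymes, which fix carbon dioxide, had a median difference of -0.12, with 18 of 25 below 0, a median RNA value of -0.0039 and a median footprint value of -0.17. Fewer footprints were called in 5 of these 25, against 1.36% of the tested genes, among them GAPA, GAPA-2 and GAPB, the subunits of chloroplast glyceraldehyde-3-phosphate dehydrogenase, with differences of -0.78, -0.56 and -0.51. Photosystem and light-harvesting genes had a median of only -0.039, but 9 of the 84 were called with fewer footprints, against 1.36% of the tested genes. CAB2, an antenna gene with close copies that may share its reads, had a difference of -0.83 with a footprint adjusted p of 0.202.

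The organelle genomes lay on opposite sides of 0. Of 88 chloroplast-encoded genes, 65 had a difference below 0, with a median of -0.19, and of 53 tested mitochondrion-encoded genes, 43 lay above 0, with a median of 0.38. Chloroplast genes had a median RNA value of 0.26 and a median footprint value of 0.041, while mitochondrial genes had 0.13 and 0.58. These mRNAs are translated by organelle ribosomes without eIF4E. Individual genes spread from -1.17 to 1.18 in the chloroplast and from -1.15 to 2.29 in mitochondria. The mitochondrial ends, ATMG00690 and ATMG01330, had no adjusted p of footprints, and in ceres-1 their differences were 0.88 and 2.78. In ceres-2 the lowest adjusted p of efficiency was 0.507 for chloroplast genes and 0.855 for mitochondrial genes. The value of 0.507 was that of ATCG00630, encoding photosystem I subunit J, with a difference of -0.90. ATCG00710, encoding photosystem II subunit H, had fewer footprints by the test, with an adjusted p of 0.00315 and a difference of -0.59. In the deposited efficiency column the chloroplast median was 0.039, on the other side of 0.

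Genes of the translation machinery lay close to the median of the tested genes. The 275 tested ribosomal protein genes had a median of 0.049, with 163 above 0. RPS18C, of the small subunit, had -0.71 with an adjusted p of 0.259, and RPL24A, of the large subunit, had 0.42. Initiation factors had a median of 0.023, elongation factors 0.039 and aminoacyl-tRNA synthetases 0.037. In the deposited efficiency column the medians of initiation and elongation factors were below 0, at -0.017 and -0.035. None of these 4 classes held a call in efficiency, against 0.0410% of all tested genes. At that share, no call in classes of this size does not set them apart from other genes.

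Histones had a median of 0.25, with 29 of 37 above 0, a median RNA value of -0.12 and a median footprint value of 0.072. HIS4 is not counted because its description lacks the wording used for the class. In the deposited efficiency column the histone median was 0.072. HTB4, a histone H2B, had a difference of 0.61 with an adjusted p of 0.653, and HTA9, a variant H2A, had -0.31. Histone families hold near-identical copies, and how shared reads were counted was not given in the sources used here. Transcription factors had a median of 0.079, with 213 of 349 above 0, and WRKY65 had 0.84 with an adjusted p of 0.405. Cold, dehydrin and late embryogenesis genes, which protect cells during drying and freezing, had a median of 0.24, with 17 of 23 above 0. Of these, the dehydrin COR47 had 0.69 and the dehydrin AT1G54410 had 0.72, with only the footprints of AT1G54410 passing the test. In ceres-1, over the same Col-0 libraries, the histone median was 0.22 and that of transcription factors 0.017. The median of cold, dehydrin and late embryogenesis genes in ceres-1 was 0.0025.

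Heat shock and chaperone genes had a median of 0.058, against -0.000375 in the deposited efficiency column, and proteasome genes 0.030. Genes of RING and U-box ubiquitin ligases had -0.0087, of cytochromes P450 -0.0017, of pentatricopeptide repeat proteins -0.030 and of F-box proteins -0.042. These 6 medians lay well inside the quartiles of the tested genes. In ceres-1 all 6 were above 0, from 0.017 in proteasome genes to 0.16 in pentatricopeptide repeat genes. Auxin-responsive genes had a median of -0.10 in ceres-2, with 24 of 37 below 0 and a median RNA value of 0.10. CYP83A1, a cytochrome P450 of glucosinolate synthesis, had fewer footprints with an adjusted p of 1.53e-07 and a difference of -0.63, in a class whose median was near 0.

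**Figure D4:**
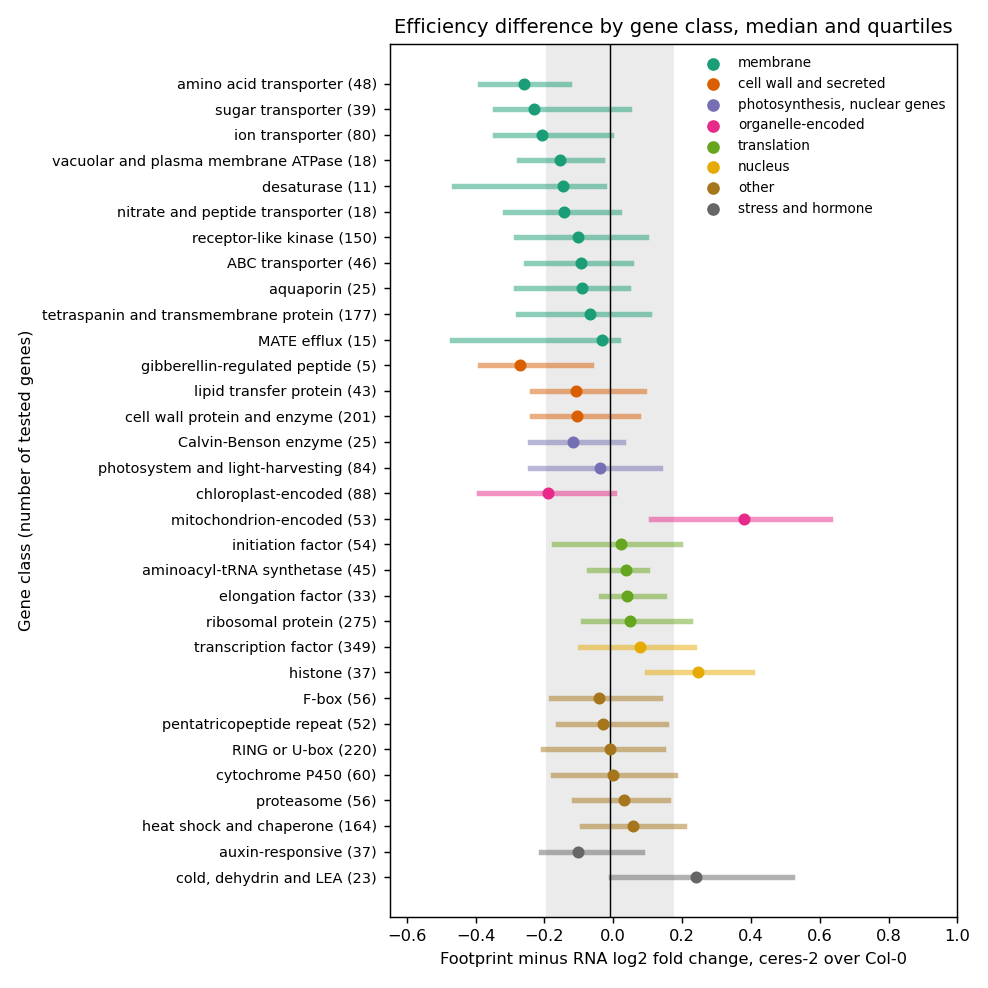
Median (point) and quartiles (bar) of footprint minus RNA log2 fold change, ceres-2 over Col-0, in 32 gene classes, with the number of tested genes in brackets and colours for the kind of class. The vertical line is the median of the 12188 tested genes, -0.0097, and the grey band their quartiles, -0.19 and 0.17. All 11 medians of classes grouped as membrane lie left of the line, but classes were revised after values were seen. The medians of histones, of mitochondrion-encoded genes and of cold, dehydrin and late embryogenesis genes lie right of the band.

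Genes were also grouped by the predicted protein rather than by description. This grouping overlaps the membrane classes and uses the same differences, so it is not separate evidence. A hydrophobic stretch was counted wherever 19 residues in a row averaged at least 1.6 on the Kyte-Doolittle scale, a usual mark of a membrane segment or signal peptide. Of 12042 tested genes with an annotated nuclear transcript, the 910 with 4 or more stretches had a median difference of -0.18, with 75.9% below 0, and the 7442 without any had 0.036, with 44.6% below 0. Between these ends the median was -0.040 with 1 stretch, -0.10 with 2, -0.10 with 3, -0.14 with 4 and -0.19 with 5, and it was -0.19 with 6 or more. Medians were thus lower with more stretches, with those at 2 and 3 and at 5 and above close to each other. The spread within each group was wider than the gap between groups, with quartiles of -0.34 and -0.0079 for 4 or more stretches and of -0.14 and 0.21 for none.

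Both assays contributed to the gap of -0.22. Median RNA values were 0.087 with 4 or more stretches and -0.033 with none, and median footprint values were -0.084 and 0.011. Of the 910 genes with 4 or more stretches 1 was called in efficiency, VGT1, and of the 7442 with none 1, AT1G70780. The share over all tested genes was 0.0410%, and single genes do not set the groups apart. FAD2 and GASA4 had 1 stretch each, AT3G47250 had 2 and VGT1 had 9. In ceres-1, over the same Col-0 libraries, the medians of the difference were -0.10 and 0.036.

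In ceres-2, coding length, GC content and leader length moved with the difference too. In 5 groups of about equal size, ordered from the shortest to the longest coding sequence, the median was 0.078, 0.0050, -0.019, -0.023 and -0.076. In 5 such groups ordered from low to high GC content at the third codon position it was -0.040, -0.039, -0.019, -0.0023 and 0.059. Within each of 4 groups of about equal size by coding length, the genes with 4 or more stretches had the lower median, with gaps of -0.25 to -0.17. The gaps within 4 groups by GC content ran from -0.24 to -0.19 and those within 4 groups by leader length from -0.25 to -0.18. The gap was also present outside the classes named for membranes, secretion and photosynthesis, where 611 genes with 4 or more stretches had a median of -0.18 and 7308 with none had 0.037. The part of other sequence features in it was not tested. In ceres-1, over the same Col-0 libraries, the order by coding length was not the same. From the shortest to the longest group, its medians were -0.015, -0.029, -0.018, 0.012 and 0.035. By GC content the ceres-1 medians lay between -0.0064 and 0.0095.

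Start codons in the leader went with smaller gaps. The 7387 genes with at least 1 ATG in the annotated leader had a median difference of -0.032, and the 4655 genes with none had 0.028. The median was -0.0093 with 1 ATG, -0.027 with 2, -0.042 with 3, -0.037 with 4, -0.067 with 5 and -0.086 with 6 or more. In contrast to the hydrophobic stretches, the RNA medians were alike, at -0.0076 with an ATG and -0.013 without, and the footprint medians were -0.032 and 0.022. The gap of -0.060 was below 0 within each of the 4 groups by coding length, by GC content and by leader length, where it lay between -0.10 and -0.0077. Annotated leaders may differ from those used in these seedlings, and the counts rest on 1 annotated transcript a gene.

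**Figure D5:**
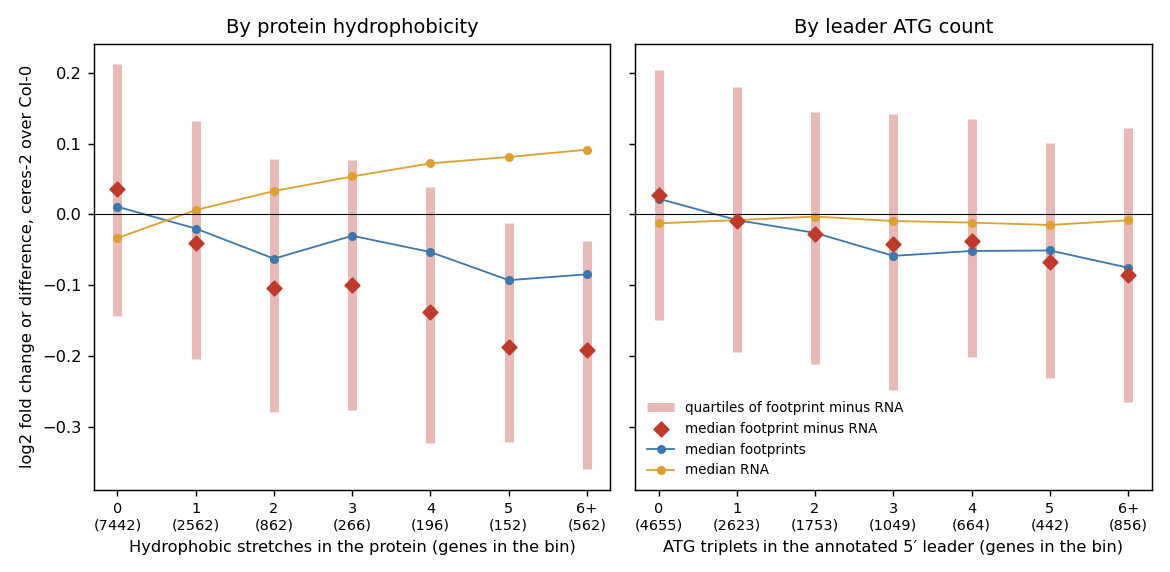
Medians of the RNA change, the footprint change and their difference (log2, ceres-2 over Col-0), with quartiles of the difference as bars, by the number of hydrophobic stretches in the protein and by the number of ATG in the annotated leader, over 12042 tested genes. With more stretches RNA medians lie higher and footprint medians are below 0 from 1 stretch on, while with more leader ATG the RNA medians stay near 0 and the footprint medians are below 0 from 1 ATG on.

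Among the genes of cap-binding proteins and of the factors that work with them, none passed the test of efficiency. Only 0.0410% of all tested genes passed it, so this count says little about so few genes. The cap-binding proteins eIF4E and eIFiso4E had differences of 0.20 and 0.13, and the third cap-binding protein, nCBP, had -0.39. The scaffolds eIF4G, eIFiso4G1 and eIFiso4G2 had 0.19, 0.067 and 0.34. Helicase genes eIF4A1 and eIF4A2 had -0.065 and 0.13, and the genes of the helicase cofactor eIF4B, eIF4B1 and eIF4B2, had 0.41 and 0.45. For eIF4B1 and eIF4B2 the RNA values of -0.44 and -0.38 made up most of the difference, since their footprint values were -0.037 and 0.074. The poly(A)-binding proteins PAB2, PAB4 and PAB8 had -0.15, -0.13 and -0.18. Over these 13 genes the lowest adjusted p of efficiency was 0.860, in nCBP.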

How the data were processed

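Footprints and RNA were measured in 3 libraries each of ceres-2, ceres-1 and Col-0 seedlings. Footprint libraries are named as such in the labels. The other libraries were taken as RNA because the table's header names total RNA and the series describes both assays. The submitters' processing notes name TopHat2 2.1.0, featureCounts 1.6.2 and DESeq2. The sources used here did not give the genome build, annotation release, multi-mapping and strand settings or the model behind the efficiency columns. The authors deposited 1 table, which gives RNA, footprints and efficiency as log2 fold changes against Col-0, with adjusted p-values. A gene without an adjusted p-value in the deposited table was treated as not tested. In a table with no values per library no model could be fitted, and every p-value is the authors'.

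The difference subtracts the RNA from the footprint log2 fold change, with no pseudocount or filter of its own, and its calls use the authors' adjusted p of efficiency below 0.05. Its link to that p rests on both being named efficiency. Genes named are the calls, the 20 smallest adjusted p-values, and the 10 largest differences in each direction among footprint calls with an efficiency p. Also named are up to 3 smallest p-values and both ends in each class, CERES, cap-binding proteins and the factors that work with them. ATHB2 was chosen after its values were seen. Members and lists were chosen with earlier results of these data known. Class patterns were revised, transporters split into families, and leader, GC, start-site and within-group comparisons added, after values were seen, so no test rests on them. Of 27628 identifiers, 27420 matched the RefSeq table of TAIR10.1, used by locus identifier, and for 1375 genes the name column served in place of the description. Features come from the longest coding sequence, ties going to the lowest isoform number. Scripts used Python 3.11.15, pandas 2.3.3, numpy 2.4.6, scipy 1.17.1 and matplotlib 3.10.9. Only the class medians were checked, on shuffled differences with known shifts added to some classes.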

Additional observations from a re-analysis of the deposited data

How the results depend on the processing

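At an adjusted p below 0.01 the number of efficiency calls was 0, against 5 at 0.05 in the authors' deposited table, which gives no unadjusted p. Footprint calls without a like RNA change numbered 109 at an adjusted p below 0.01, with 92 lower and 17 higher, against 180, 150 and 30, and with the RNA limit at 25% the higher ones numbered 18. The median difference over all genes with both fold changes was -0.000245, against -0.0097 in tested genes. The gap by hydrophobic stretches was -0.097 in the deposited efficiency column and -0.12 from RNA alone with its sign turned, against -0.22, and that by leader ATG was -0.0051 from RNA alone, against -0.060. These column and RNA settings were chosen after seeing the data. In the efficiency column the chloroplast-encoded median was 0.039 and that of heat shock and chaperone genes -0.000375, both on the other side of 0. Of 160 class medians recomputed under 5 settings, 148 stayed within the order-statistic interval of the class median, while 10 others and these 2 left it. In all, 9 of the 160 changed sign: these 2, initiation and elongation factors in the efficiency column, cytochromes P450 over all genes and as a mean, pentatricopeptide repeat proteins as a mean, and gibberellin-regulated peptides at 0.076 over all genes and 0.040 in the efficiency column. The causes were not tested. No paired analysis was possible because single libraries have no values in the table, and leaving out a replicate was not run for that reason. The unknown depth limits genes with few reads, whose differences cannot be weighed.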
